A study of Mus musculus with 12 samples.

Results

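Expression of 9 regulator genes was described in medullary thymic epithelial cells (mTECs): Aire and Fezf2, Chd4, Hipk2, Sirt1 and Prkdc, whose proteins work with one of those regulators, and the transcription factor genes Irf4, Irf8 and Prdm1. The genes were taken by name and matched from Ensembl identifier to symbol, and all 9 were found among the 50600 genes of the read count and RSEM tables of 12 libraries. Polyadenylated RNA from thymus of mice aged 6 to 8 weeks had been sequenced, in 6 libraries of mTECs with much MHC class II on the surface (mTEC hi) and 6 of mTECs with little (mTEC lo). The mice were of strain B6.B6CB-Psmb11tm1Smta, either Psmb11-/- (Psmb11-deficient) or Psmb11+/+ (WT); Psmb11 encodes the proteasome subunit beta5t of cortical thymic epithelium. Each cell type had 2 Psmb11-deficient and 2 WT libraries, and 2 more whose title gives one genotype and whose source name and strain give the other. These 4 libraries with labels in conflict entered the comparison of cell types and no comparison of genotypes. Whether libraries came from separate mice is not in the labels, so the spread behind each p-value may be technical.

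mTECs transcribe genes of many other tissues so that developing T cells that recognise the products can be removed or diverted. Aire and Fezf2 are the best described regulators of this program and act on largely different genes. Aire protein works inside a large set of partner proteins, and several of them modify it or open chromatin. MHC class II high mTECs include the mature cells that carry Aire, whereas the MHC class II low pool mixes immature cells with later stages.

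The start sites of the genes that differed most between the cell types are shown first, because these 5 rose together between the cell types. RefSeq promoters (GRCm38.p6) were found for 8 of the 9 genes, all but Prkdc. Chd4, Hipk2 and Irf8 have 2 promoters listed, and the one nearest to the GENCODE gene start was read. For Fezf2, Sirt1 and Prdm1 the only promoter listed lies inside the GENCODE gene, away from its start. Their start sites read were 12345865, 63339035 and 44458748, against GENCODE gene starts at 12348189, 63381704 and 44528501. The 100 bases before the start site are printed 5′ to 3′ on the strand of the gene. In the first 3 sequences the capitals mark the motif TATAAA, and in the other 2 they mark every CG.
Aire, chr10:78043611-78043710, minus strand: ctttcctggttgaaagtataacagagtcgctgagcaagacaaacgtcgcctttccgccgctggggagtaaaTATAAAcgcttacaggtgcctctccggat
Irf4, chr13:30749133-30749232, plus strand: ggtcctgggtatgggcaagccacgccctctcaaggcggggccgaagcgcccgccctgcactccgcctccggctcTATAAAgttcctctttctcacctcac
Irf8, chr8:120736258-120736357, plus strand: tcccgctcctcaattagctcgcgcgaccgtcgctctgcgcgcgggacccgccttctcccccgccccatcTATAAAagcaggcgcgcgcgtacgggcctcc
Fezf2, chr14:12345866-12345965, minus strand: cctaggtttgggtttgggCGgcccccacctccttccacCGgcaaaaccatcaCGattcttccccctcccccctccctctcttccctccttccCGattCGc
Sirt1, chr10:63339036-63339135, minus strand: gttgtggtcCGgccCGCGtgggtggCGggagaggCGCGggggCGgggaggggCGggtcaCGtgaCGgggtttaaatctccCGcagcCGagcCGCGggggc

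TATAAA on the strand of the gene began 29 bases before the start site in Aire, 26 in Irf4 and 31 in Irf8. It was not found on either strand in the 250 bases before the start site read for Fezf2, Sirt1, Chd4, Hipk2 or Prdm1. Among 32851 RefSeq promoters, 7.59% held TATAAA on the strand of the gene in that window, 12.4% held it on either strand, and 1.94% held it between 40 and 19 bases before the start. The Sirt1 window held 39 CG and the Hipk2 window 43, against a median of 6 over all promoters. Those of Aire, Irf4, Chd4, Fezf2, Prdm1 and Irf8 held 11, 11, 12, 14, 15 and 29. A match describes letters and is not a site shown to be used.

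Reads in genes ranged from 38791960 to 86793594 per library, and no 2 libraries of a cell type agreed within sampling noise (chi-square of 7.82 or more per gene). Values are read counts over the library total (CPM), scaled by the trimmed mean of M values (TMM). Psmb11, the targeted gene, had 0.85 to 1.63 CPM across 4 Psmb11-deficient libraries, against 7.51 to 12.2 CPM across 4 WT libraries. Of the libraries with labels in conflict, those with a knockout title were at 1.117 and 1.26 CPM and those with a WT title at 8.15 and 7.10 CPM; these values placed no library in a group. Epithelial genes were present in every library, among them Foxn1, the master regulator of thymic epithelium (215 ± 5.70 CPM in mTEC hi, 105 ± 9.63 CPM in mTEC lo; SD, n = 6 each), and Krt14, a keratin of basal epithelium (274 ± 17.7 CPM in mTEC hi, 2058 ± 165 CPM in mTEC lo). Of 7 epithelial genes 3 rose, 3 fell and 1 did not pass, and of 6 cortical epithelial markers 2 rose (Ccl25 most), 3 fell (Cxcl12 most) and 1 did not pass. The 4 genes of MHC class II, the mark of the sort, were higher in mTEC hi, for example H2-Aa at 5451 ± 182 CPM against 2119 ± 155 CPM in mTEC lo.

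Between mTEC hi and mTEC lo, 5 of the 9 genes rose, 1 fell and 3 did not pass the test. Aire, Irf4, Sirt1, Irf8 and Fezf2 rose, with log2 fold changes of 6.84, 3.24, 2.93, 1.87 and 1.48. Chd4 fell by 0.41, and Hipk2 (0.19), Prkdc (-0.00) and Prdm1 (-0.22) did not pass. The test was the edgeR quasi-likelihood F test over 23923 genes with Benjamini-Hochberg adjustment and a threshold of 0.05. It called 82.1% of all genes tested, 44.2% as higher and 38% as lower in mTEC hi, so a call by itself sets no gene apart and the sizes matter more. By size of change, 3.44% of tested genes lay above Aire, 16.7% above Irf4, 18.5% above Sirt1, 25.3% above Irf8 and 28.5% above Fezf2. The 6 calls were the same with the 8 libraries of undisputed genotype alone (Aire 7.03, Irf4 3.25, Sirt1 2.88, Irf8 1.92, Fezf2 1.52, Chd4 -0.42).

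**Figure D1:**
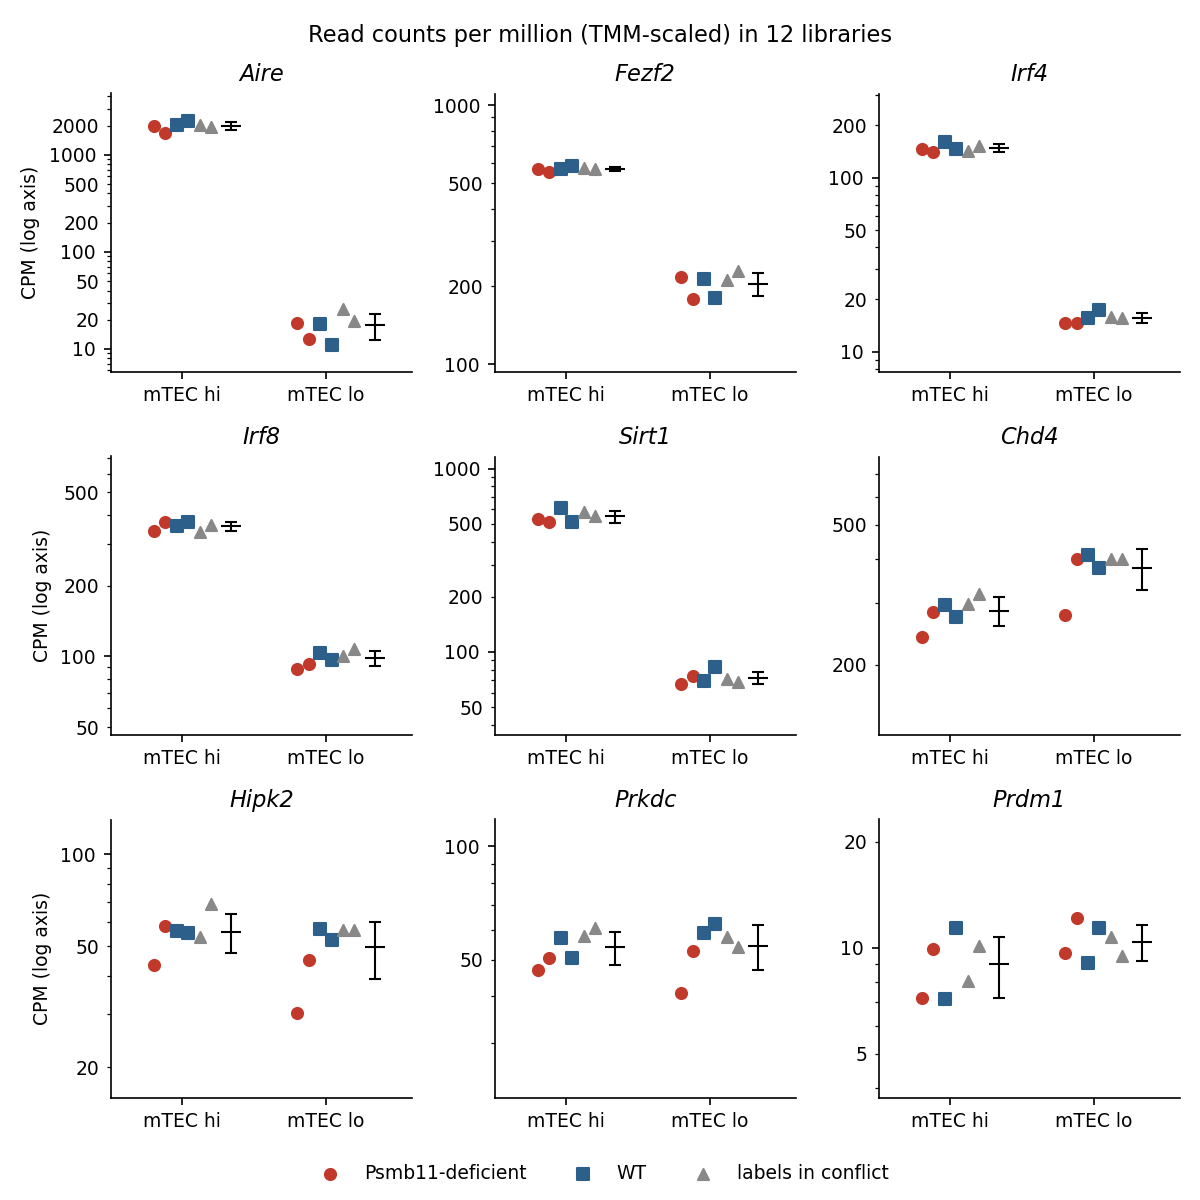
Read counts (CPM, log axis) of the 9 genes in 6 mTEC hi and 6 mTEC lo libraries. Each point is a library, coloured by genotype, and the black bars give the mean ± SD of 6 libraries. For Aire, Fezf2, Irf4, Irf8 and Sirt1 every mTEC hi library lies above every mTEC lo library, and for the other 4 genes the cell types overlap. Of all 23923 genes tested, 68.8% had no overlap between the 6 and 6 libraries, so this by itself sets no gene apart.

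Aire (chr10:78030022-78043610, minus strand, GRCm38), which turns on tissue-restricted antigens, showed the widest gap. Its lowest, median and highest values were 1672, 1999 and 2254 CPM in mTEC hi, against 11.1, 18.3 and 26.0 CPM in mTEC lo. The lowest mTEC hi library was 64.2 times the highest mTEC lo library, so the groups were far apart. The means were 1979 ± 186 CPM for mTEC hi and 17.6 ± 5.35 CPM for mTEC lo (SD, n = 6 each), a 114-fold difference (log2 fold change 6.84, SE 0.17, 95% interval 6.48 to 7.19, edgeR adjusted p = 3.77e-16). Relative spread was smaller in mTEC hi, with a coefficient of variation of 9.38%, than in mTEC lo at 30.4%. In bulk RNA, fewer cells that carry Aire and less Aire RNA per cell cannot be told apart. The 5′ end of Aire overlaps Dnmt3l on the opposite strand over 67 exon bases, 1.75% of the exon bases of Aire. The counts ignore strand, and Dnmt3l, a cofactor of DNA methylation, was also higher in mTEC hi (47.0 ± 2.15 CPM against 0.70 ± 0.22 CPM in mTEC lo, log2 fold change 6.05). In Psmb11-deficient replicate 1 the strand columns held 69587 and 68020 Aire reads in mTEC hi, against 124648 in the unstranded column used. In mTEC lo they held 681 and 650, against 1196. The column used thus held fewer Aire reads than the strand columns together in both of these libraries.

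Genes that lie upstream of Aire or respond to it were counted beside it. Of 10 genes of the receptor and NF-kB signals that induce Aire, 6 rose, 2 fell and 2 did not pass (median log2 fold change 0.71, against 0.08 over all genes tested). Cd40, a receptor of the tumour necrosis factor family, was at 224 ± 8.46 CPM in mTEC hi, against 27.4 ± 2.79 CPM in mTEC lo (log2 fold change 3.04, edgeR adjusted p = 5.86e-17). Ltbr, the lymphotoxin beta receptor, was at 40.5 ± 2.28 CPM in mTEC hi, against 109 ± 7.97 CPM in mTEC lo (-1.43). All 11 Aire-dependent antigens that were tested rose, where 44.2% of all genes tested did. Their dependence on Aire was not tested here. Their summed level was 1154 to 1443 CPM in mTEC hi, against 27.0 to 45.1 CPM in mTEC lo. Csn2, a milk casein named after its values were seen, made up 887 to 1121 CPM of the mTEC hi sum and 15.6 to 30.5 CPM of the mTEC lo sum, and the other 10 summed to 265 to 322 CPM in mTEC hi, against 10.4 to 14.6 CPM in mTEC lo. The median log2 fold change of the 11 was 5.63, or 5.58 with Mup1 and Rbp3, which had no read in mTEC lo, set to the bound from a floor of 3 reads over the 6 libraries. Rbp3, a retinoid-binding protein of the eye, exceeded its mTEC lo level in mTEC hi by at least 105-fold on that floor. Of 7 relatives of Aire and Fezf2, 6 fell and 1 did not pass, and Sp100, a nuclear body protein that shares the SAND domain with Aire, was at 87.2 ± 6.40 CPM in mTEC hi, against 228 ± 7.74 CPM in mTEC lo (-1.39).

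Fezf2 (chr14:12342094-12348189, minus strand), a zinc finger factor first known from forebrain development, differed less than Aire and had the smallest relative spread of the 9 within mTEC hi. Its lowest, median and highest values were 556, 569.5 and 585 CPM in mTEC hi, against 178, 213 and 230.1 CPM in mTEC lo. The groups did not overlap, as for 68.8% of all genes tested, and the lowest mTEC hi library was 2.42 times the highest mTEC lo library. The 2.78-fold difference (log2 fold change 1.48, SE 0.06, edgeR adjusted p = 3.22e-13) came with a coefficient of variation of 1.66% in mTEC hi and 10.3% in mTEC lo. All 12 Fezf2-dependent antigens rose (median log2 fold change 3.33), where 44.2% of all genes tested did. Their dependence on Fezf2 was not tested here. Their summed level was 778 to 933 CPM in mTEC hi, against 152 to 195 CPM in mTEC lo. Mup4, a urinary protein whose near-identical relatives make its reads uncertain, was at 5.41 ± 0.69 CPM in mTEC hi, against 0.03 ± 0.03 CPM in mTEC lo, with no read in 2 mTEC lo libraries.

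On the TPM scale of RSEM, which divides by transcript length and so lets genes be compared, the order of Aire and Fezf2 differed between the cell types. In each mTEC hi library the Aire level was 3.13 to 3.99 times that of Fezf2. In each mTEC lo library the Fezf2 level was 8.07 to 17.3 times that of Aire. Aire averaged 1421 ± 142 TPM in mTEC hi and 9.94 ± 3.19 TPM in mTEC lo, and Fezf2 averaged 398 ± 13.4 TPM in mTEC hi and 114 ± 12.8 TPM in mTEC lo. By mean TPM Aire ranked 81 of 50600 genes in mTEC hi and 9969 in mTEC lo, and Fezf2 ranked 306 in mTEC hi and 1177 in mTEC lo.

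Irf4 (chr13:30749226-30766976, plus strand) and Irf8 (chr8:120736358-120756694, plus strand) encode interferon regulatory factors best known from B cells and dendritic cells, and both have been described as acting on the Aire gene. Irf4 had lowest, median and highest values of 141, 147 and 160.4 CPM in mTEC hi, against 14.6, 15.6 and 17.5 CPM in mTEC lo. Its groups were 8.04 times apart at their nearest libraries (log2 fold change 3.24, SE 0.05, edgeR adjusted p = 3.05e-18). Irf8 had lowest, median and highest values of 337, 361 and 373 CPM in mTEC hi, against 88.2, 98.3 and 107 CPM in mTEC lo. Its groups were 3.15 times apart (log2 fold change 1.87, SE 0.05, edgeR adjusted p = 1.63e-15). Of the 9 genes of the family, 3 rose, 5 fell and 1 did not pass (median -0.78), and Irf5 was the third that rose. Irf5, which acts downstream of toll-like receptors, was at 114 ± 3.42 CPM in mTEC hi, against 18.99 ± 1.97 CPM in mTEC lo (2.59). Irf7, the regulator of type I interferon genes, was at 67.5 ± 4.03 CPM in mTEC hi, against 518 ± 38.6 CPM in mTEC lo (-2.94). In TPM, Irf8 was the highest of the family in mTEC hi by mean, at 23.4 to 24.05% of the summed level, and sixth in mTEC lo at 3.37 to 4.14%. Irf4 held 4.98 to 5.73% of it in mTEC hi and 0.30 to 0.39% in mTEC lo.

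Marker genes of blood cells, some of which express Irf4 and Irf8, were counted beside them. Of all genes tested 44.2% rose. All 7 B cell markers rose, and their summed level was 74.4 to 78.5 CPM in mTEC hi, against 11.6 to 17.9 CPM in mTEC lo. Blk, a kinase of B cells, was at 14.6 ± 0.76 CPM in mTEC hi, against 0.49 ± 0.17 CPM in mTEC lo. All 11 markers of dendritic cells and macrophages rose, with 86.9 to 104 CPM in mTEC hi, against 9.83 to 15.4 CPM in mTEC lo, among them the growth factor receptor Flt3 at 12.7 ± 1.46 CPM against 0.33 ± 0.14 CPM in mTEC lo. Of 9 thymocyte markers 5 rose and 4 did not pass, at 68.8 to 174 CPM in mTEC hi, against 33.4 to 88.1 CPM in mTEC lo, with Ptcra, the pre-T cell receptor alpha chain, at 1.29 ± 0.18 CPM against 0.15 ± 0.11 CPM in mTEC lo. Ptprc, which encodes the surface protein CD45 of all leukocytes, was lower in mTEC hi, at 17.1 ± 6.35 CPM against 24.4 ± 3.77 CPM in mTEC lo (log2 fold change -0.52, edgeR adjusted p = 0.0124). No marker was at 0 in all libraries of either cell type, and Ms4a1 was at 0 in 1 mTEC lo library. The part of such cells in the levels of Irf4 and Irf8 was not tested, nor was transcription of these markers by mTECs themselves.

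Sirt1 (chr10:63319005-63381704, minus strand), a deacetylase that uses NAD and removes acetyl groups from Aire, had lowest, median and highest values of 509, 541 and 613 CPM in mTEC hi, against 67.2, 70.3 and 82.9 CPM in mTEC lo. The groups were 6.14 times apart at their nearest libraries. The difference was 7.60-fold (log2 fold change 2.93, SE 0.06, edgeR adjusted p = 8.48e-17). Of the 7 sirtuins Sirt1 rose, 5 fell and 1 did not pass, and the family median was -0.47. Sirt2, a mainly cytoplasmic deacetylase, fell furthest, with 45.9 ± 1.55 CPM in mTEC hi, against 77.9 ± 4.04 CPM in mTEC lo (-0.76). In TPM, Sirt1 made up 56.2 to 62.0% of the summed sirtuin level in mTEC hi and 11.4 to 15.6% in mTEC lo, where Sirt2 and Sirt7 lay above it by mean. The mean transcript length that RSEM assigned to Sirt1 was 3433 ± 29.1 bases in mTEC hi and 3300 ± 85.1 bases in mTEC lo (exact two-sided permutation p = 0.00649). Adjusted over the 8 genes with a length that varied, this p was 0.052, which misses the threshold, and the other 7 had adjusted p of 0.424 or more. An antisense gene, Gm16145, shares 65 exon bases with Sirt1 and had a median of 12 reads in mTEC hi and 0 in mTEC lo.

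**Figure D2:**
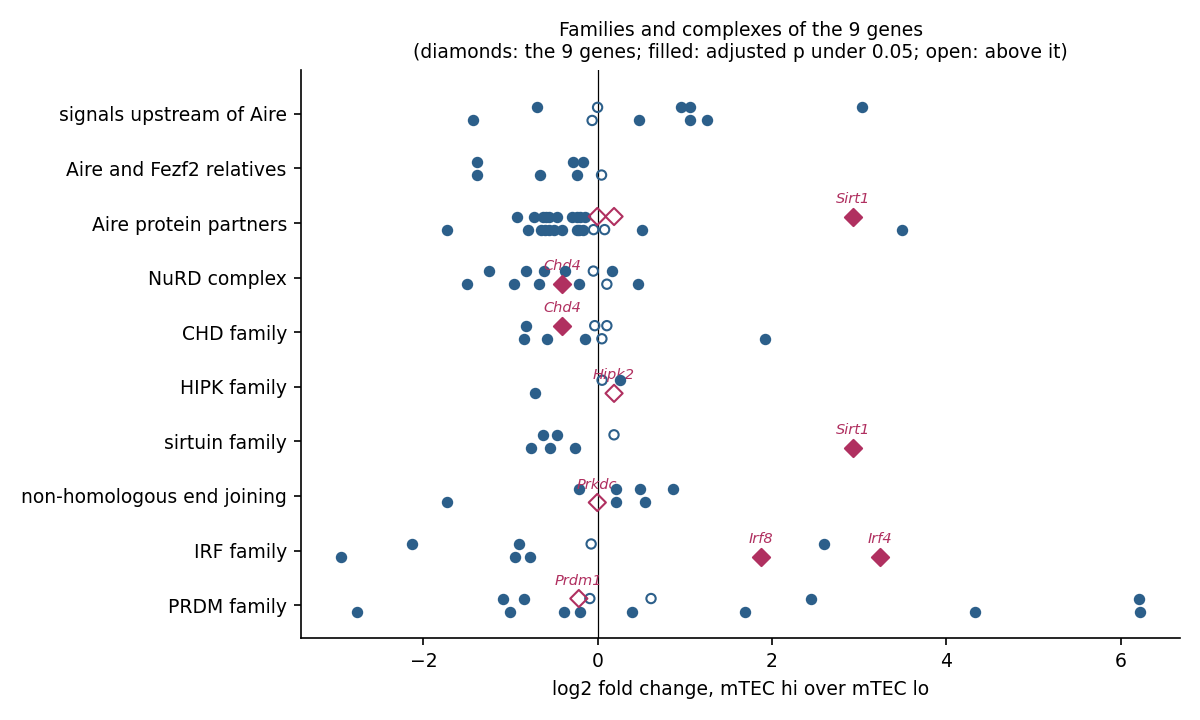
Log2 fold change of mTEC hi over mTEC lo for the genes of 10 families, complexes and pathways. Each point is a gene, diamonds are the 9 genes, and filled symbols passed the adjusted p of 0.05; Sirt1 stands to the right of 0 where 5 other sirtuins stand to the left, and the IRF family has Irf4, Irf5 and Irf8 on the right and 5 genes on the left.

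Chd4 (chr6:125095981-125130591, plus strand), the chromatin remodelling ATPase of the NuRD complex that has been described as a partner of Fezf2 in mTECs, was lower in mTEC hi. Its lowest, median and highest values were 241, 289 and 318 CPM in mTEC hi, against 277, 400.0 and 412 CPM in mTEC lo. One mTEC lo library, Psmb11-deficient replicate 1 at 277 CPM, lay within the mTEC hi range, and the other 5 lay above it at 377 CPM or more. The log2 fold change was -0.41 (SE 0.07, 95% interval -0.56 to -0.25, edgeR adjusted p = 6.92e-05). It was -0.12 with scaling by library size alone, which ends the call (adjusted p = 0.103). In TPM the means were 91.3 ± 13.4 in mTEC hi and 92.7 ± 14.99 in mTEC lo. Of 13 NuRD genes 2 rose, 9 fell and 2 did not pass, with a median of -0.41 and a summed level of 1737 to 1877 CPM in mTEC hi, against 1962 to 2234 CPM in mTEC lo. Rbbp7, a histone-binding subunit, was at 353 ± 26.2 CPM in mTEC hi, against 256 ± 16.2 CPM in mTEC lo (0.46), and Mta1, a scaffold of the complex, at 36.8 ± 1.94 CPM in mTEC hi, against 104 ± 8.64 CPM in mTEC lo (-1.50). Of 9 CHD remodellers 1 rose, 5 fell and 3 did not pass. Chd5, known from neurons and testis, was at 6.89 ± 0.95 CPM in mTEC hi, against 1.82 ± 0.25 CPM in mTEC lo, and Chd9 at 66.2 ± 6.82 CPM in mTEC hi, against 119 ± 12.7 CPM in mTEC lo.

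Hipk2 (chr6:38694390-38876165, minus strand) encodes a nuclear kinase that phosphorylates Aire. Its lowest, median and highest values were 43.2, 55.6 and 68.6 CPM in mTEC hi, against 30.2, 54.3 and 57.0 CPM in mTEC lo, and the groups overlapped. The log2 fold change was 0.19 (SE 0.10, 95% interval -0.02 to 0.40, edgeR adjusted p = 0.0936). It passed under 6 of 9 alternative settings, at 0.19 to 0.47, the last with scaling by library size alone. Without the mTEC lo Psmb11-deficient replicate 1, its lowest library, it was 0.09, and without the mTEC hi replicate 1 with labels in conflict it passed at 0.24. Of the 4 HIPK kinases Hipk3 rose (285 ± 18.4 CPM in mTEC hi, 239.8 ± 15.5 CPM in mTEC lo), Hipk1 fell (171 ± 11.4 CPM in mTEC hi, 281 ± 29.8 CPM in mTEC lo) and the other two did not pass.

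Prkdc (chr16:15637866-15842235, plus strand) encodes the catalytic subunit of the DNA-dependent protein kinase, which binds Aire and joins broken DNA ends. Its lowest, median and highest values were 46.8, 53.8 and 60.8 CPM in mTEC hi, against 40.8, 55.7 and 62.0 CPM in mTEC lo. The ranges overlapped almost wholly, and the 95% interval of the log2 fold change was -0.14 to 0.13 (edgeR adjusted p = 0.948). With scaling by library size alone the value was 0.28 and passed. Of 8 genes of non-homologous end joining 5 rose, 2 fell and 1 did not pass. Xrcc5, which encodes the Ku80 subunit that loads the kinase onto DNA ends, was at 21.6 ± 1.16 CPM in mTEC hi, against 71.8 ± 5.01 CPM in mTEC lo (-1.73), and Dclre1c, the Artemis nuclease, at 27.3 ± 2.27 CPM in mTEC hi, against 15.2 ± 2.51 CPM in mTEC lo (0.86). Over 27 partners of Aire protein, with Sirt1, Hipk2 and Prkdc among them, 3 rose, 20 fell and 4 did not pass, with a median of -0.29. The topoisomerase Top2a, which is also made in dividing cells, rose most, at 149.6 ± 15.2 CPM in mTEC hi, against 13.3 ± 0.92 CPM in mTEC lo (3.49).

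Prdm1 (chr10:44437177-44528501, minus strand), the repressor Blimp-1 of plasma cells and epidermis, had the lowest mean TPM of the 9 in both cell types. Its lowest, median and highest values were 7.14, 8.96 and 11.4 CPM in mTEC hi, against 9.04, 10.2 and 12.2 CPM in mTEC lo, and the groups overlapped. The log2 fold change was -0.22 (SE 0.13, 95% interval -0.48 to 0.05, edgeR adjusted p = 0.12). It was 0.07 with scaling by library size alone, and it passed without mTEC hi WT replicate 3 (-0.32) and with a block by matching titles (-0.23). Of 15 PRDM genes 6 rose, 6 fell and 3 did not pass. Prdm12, a neuronal factor, was at 1.66 ± 0.35 CPM in mTEC hi and had no read in 4 mTEC lo libraries. Of 4 plasma cell markers Tnfrsf17 rose (13.1 ± 1.15 CPM in mTEC hi, 0.29 ± 0.12 CPM in mTEC lo), Sdc1, which epithelium also makes, fell (147 ± 20.8 CPM in mTEC hi, 305 ± 33.1 CPM in mTEC lo) and 2 did not pass; their summed level was 141 to 205 CPM in mTEC hi, against 273 to 364 CPM in mTEC lo.

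**Figure D3:**
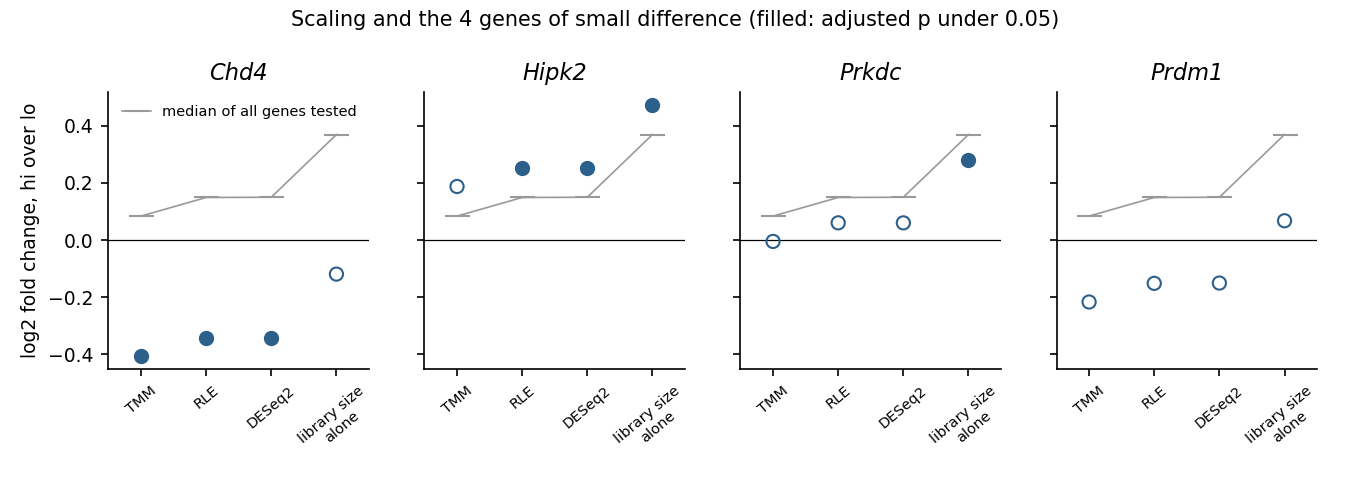
Log2 fold change of mTEC hi over mTEC lo for Chd4, Hipk2, Prkdc and Prdm1 under 3 scalings in edgeR and in DESeq2, with the median of all genes tested in grey; filled points passed the adjusted p of 0.05. Each gene moves by the same step as the grey median, so that Chd4 stays 0.49 below it and Hipk2 0.10 above it.

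The choice of scaling moved all genes together. The median log2 fold change over all genes tested was 0.08 under TMM, 0.15 under relative log expression (RLE) size factors and 0.37 with library size alone, and the share of called genes that were higher in mTEC hi was 53.8% under TMM and 67.0% with library size alone. Relative to that median, Chd4 was at -0.49, Prdm1 at -0.30, Prkdc at -0.09 and Hipk2 at 0.10 in each of the 3 scalings. Aire, Irf4, Sirt1, Irf8 and Fezf2 lay 6.75, 3.16, 2.84, 1.79 and 1.39 above it.

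In TPM the 9 genes were ordered in mTEC hi as Aire, Fezf2, Sirt1 (259.9 ± 22.8), Irf8 (222 ± 8.94), Chd4, Irf4 (50.2 ± 2.61), Hipk2 (16.2 ± 2.33), Prkdc (6.48 ± 0.83) and Prdm1 (2.97 ± 0.76). Every neighbour in this order was apart from the next over all 6 libraries. In mTEC lo the order was Fezf2, Chd4, Irf8 (47.8 ± 4.87), Sirt1 (28.1 ± 3.25), Hipk2 (11.5 ± 2.15), Aire, Prkdc (5.26 ± 0.91), Irf4 (4.15 ± 0.43) and Prdm1 (2.81 ± 0.49). There 3 of 8 neighbouring pairs were apart: Chd4 from Irf8, Irf8 from Sirt1, and Sirt1 from Hipk2. Fezf2 and Chd4 overlapped, and so did each pair from Hipk2 down to Prdm1.

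**Figure D4:**
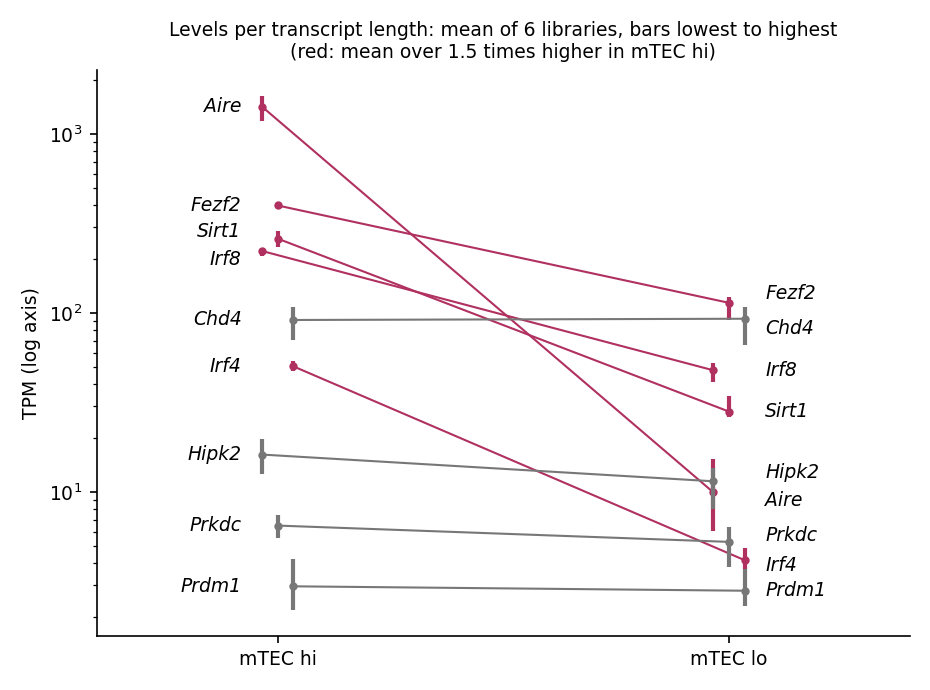
Levels per transcript length (TPM, log axis) of the 9 genes in mTEC hi, on the left, and mTEC lo, on the right. Points are means of 6 libraries and bars run from the lowest to the highest library; Aire is first in mTEC hi and sixth in mTEC lo.

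For each gene the genes of most similar profile were sought among the other genes that averaged 10 CPM or more (10979 for Prdm1, 10978 for the rest), by the root mean square distance of centred log2 CPM over the 12 libraries. The closest to Aire were Prss29 (distance 0.25), Robo3 (0.27) and Mybpc3 (0.29), a serine protease of the uterus, an axon guidance receptor and a cardiac myosin-binding protein, with log2 fold changes of 7.26, 6.97 and 7.14. The closest to Fezf2 were Pkdcc (0.07), Tbkbp1 (0.07) and Cdk18 (0.08), with log2 fold changes of 1.51, 1.47 and 1.42. One gene each was closest to Sirt1 (Dennd4a, 0.09), Irf4 (Ankrd33b, 0.09), Irf8 (Sesn2, 0.04), Chd4 (Ncor1, 0.06), Hipk2 (Herc2, 0.10), Prkdc (Zc3h13, 0.05) and Prdm1 (Hbegf, 0.13). The distance is set mainly by the step between the cell types, and libraries of a cell type share that step.

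The comparison of cell types was then read within each genotype, with 2 libraries per group, where 68.1% of 26642 tested genes passed among Psmb11-deficient libraries and 67% among WT libraries (70.5% and 69.8% at an unadjusted p under 0.05). Aire was at 6.86 within Psmb11-deficient and 7.17 within WT libraries, Irf4 at 3.28 and 3.18, Sirt1 at 2.87 and 2.85, Irf8 at 1.96 and 1.84, and Fezf2 at 1.49 and 1.52. These 5 passed in both genotypes, as did Chd4 at -0.39 within Psmb11-deficient and -0.50 within WT libraries. Hipk2 passed within Psmb11-deficient libraries (0.41, edgeR adjusted p = 0.0378) and not within WT libraries (-0.00, adjusted p = 0.99). The difference between these Hipk2 values, the interaction of genotype and cell type, was 0.42 (SE 0.23) and did not pass (edgeR adjusted p = 0.9998). The interaction called 0 of 26642 genes (0%) by edgeR, 4.41% at an unadjusted p under 0.05 and 9 genes by DESeq2, and none of the 9 regulators by either tool or at an unadjusted p under 0.05.

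Psmb11-deficient and WT mTEC hi were compared next, to ask whether the mTEC regulators differ in mice without the cortical proteasome subunit. None of the 9 genes passed by edgeR, none had an unadjusted p under 0.05, and none passed by DESeq2. In this comparison 0.00375% of 26642 genes passed, which is Psmb11 alone (log2 fold change -3.07, SE 0.31, adjusted p = 0.00457), and 3.45% had an unadjusted p under 0.05. Aire had 1992 and 1672 CPM in Psmb11-deficient, against 2006 and 2254 CPM in WT. The log2 fold change was -0.21 with a 95% interval of -0.62 to 0.20. The conflicting libraries were at 1946 CPM under the knockout title and 2006 CPM under the WT title, within the range of the others.

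Fezf2 had 568 and 556 CPM in Psmb11-deficient mTEC hi, against 569.5 and 585 CPM in WT, with an interval of -0.26 to 0.20 for its log2 fold change of -0.03. Over the 9 genes the log2 fold changes lay between -0.21 (Aire) and -0.03 (Fezf2). The widest interval was that of Prdm1, -0.61 to 0.40, and the narrowest that of Irf8, -0.22 to 0.15. For Aire, Fezf2 and Prkdc both Psmb11-deficient libraries were below both WT libraries, where 17.7% of all genes were lower without overlap. The gaps were small: the nearest Psmb11-deficient and WT libraries were at 1992 and 2006 CPM for Aire, 568 and 569.5 CPM for Fezf2, and 50.44 and 50.45 CPM for Prkdc. Of 9 thymocyte markers none passed and all 9 had a log2 fold change above 0 (median 0.97, against 0.006 over all genes tested). Their sums were 174 and 78.6 CPM in Psmb11-deficient, against 70.4 and 73.2 CPM in WT. Psmb11-deficient replicate 1 was the highest mTEC hi library for 8 of the 9 markers. The part of these markers in the genotype values was not tested. All 9 intervals of the regulators include 0, and with 2 libraries a group they do not show that the levels were alike.

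In mTEC lo none of the 9 genes passed either, by edgeR or DESeq2, and 2 had an unadjusted p under 0.05. There 0.015% of 26642 genes passed by edgeR and 11.3% had an unadjusted p under 0.05, whereas DESeq2 called 158 genes and edgeR with no filter on low counts 660, among them Hipk2 and Prkdc. Of all genes 0.0113% passed as lower and 0.00375% as higher. The 4 genes that passed were Psmb11 (-2.81) and 3 that were chosen after their values were seen, the heat shock gene Hsph1 (-0.97), the resistin-like gene Retnlg (-6.39) and the globin gene Hba-a1 (5.84), which has a near-identical copy and is uncertain. Hipk2 had 30.2 and 45.1 CPM in Psmb11-deficient mTEC lo, against 57.0 and 52.3 CPM in WT. Its log2 fold change was -0.55 (95% interval -0.90 to -0.19, edgeR adjusted p = 0.266). Prkdc had 40.8 and 52.5 CPM in Psmb11-deficient mTEC lo, against 58.8 and 62.0 CPM in WT, with a log2 fold change of -0.38 (95% interval -0.63 to -0.13, edgeR adjusted p = 0.273). For Hipk2, Prkdc, Irf4 and Irf8 both Psmb11-deficient libraries were below both WT libraries, where 17.7% of all genes were lower without overlap and 36.2% did not overlap in either direction.

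For Hipk2 and Prkdc in mTEC lo, each Psmb11-deficient library lay below both WT libraries. The size of the difference depended on Psmb11-deficient replicate 1. Without it Hipk2 was at -0.28 and Prkdc at -0.20, and without Psmb11-deficient replicate 2 they were at -0.86 and -0.58 and passed (edgeR adjusted p = 0.00697 and 0.0201), as did Chd4 at -0.52 (adjusted p = 0.0296). Chd4 had 277 and 399.6 CPM in Psmb11-deficient mTEC lo, against 412 and 377 CPM in WT. The same library was the lowest of the 6 mTEC lo libraries for 8 of 9 CHD genes and 3 of 4 HIPK genes. So it was for 5 of 8 end joining genes and 13 of 27 partners of Aire protein. It was the lowest for 2 of 13 NuRD genes, 1 of 7 sirtuins, 2 of 9 IRF genes, 4 of 15 PRDM genes and 0 of 7 relatives of Aire and Fezf2. The share over all genes was not counted, so these counts do not show whether this library was lowest more often in any list than elsewhere. All 9 CHD and all 4 HIPK genes had a log2 fold change below 0 between genotypes in mTEC lo (medians -0.28 and -0.23), and none passed. The same held in mTEC hi (medians -0.19 and -0.13). The medians over all genes tested were 0 in mTEC lo and 0.006 in mTEC hi. The NuRD list went the other way, with 8 of 13 genes above 0 in mTEC lo and 10 of 13 in mTEC hi. In mTEC hi, Psmb11-deficient replicate 1 was the lowest library for 7 of 9 CHD and 3 of 4 HIPK genes. Same-numbered Psmb11-deficient libraries may be linked between the cell types, so these directions need not be separate observations. In mTEC lo, Psmb11-deficient replicate 1 was also the highest library for all 9 thymocyte markers. Their sums were 88.1 and 56.7 CPM in Psmb11-deficient mTEC lo, against 37.7 and 33.4 CPM in WT. None of the 9 passed and all had a log2 fold change above 0 (median 1.29, against 0 over all genes tested). Their part in the genotype values was not tested. The count of all genes that passed was 263 without replicate 1 and 323 without replicate 2, against 4 with both; each such fit assumes that the library left alone varies like the other groups. The conflicting mTEC lo libraries stood nearer to WT for Hipk2, at 56.5 CPM under the knockout title and 56.4 CPM under the WT title, and for Chd4, at 400.3 and 400.5 CPM. Aire had 18.6 and 12.5 CPM in Psmb11-deficient mTEC lo, against 18.0 and 11.1 CPM in WT, so the groups overlapped (log2 fold change 0.10, 95% interval -0.35 to 0.54). Fezf2 had 217 and 178 CPM in Psmb11-deficient mTEC lo, against 214 and 181 CPM in WT (-0.00, interval -0.23 to 0.23).

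**Figure D5:**
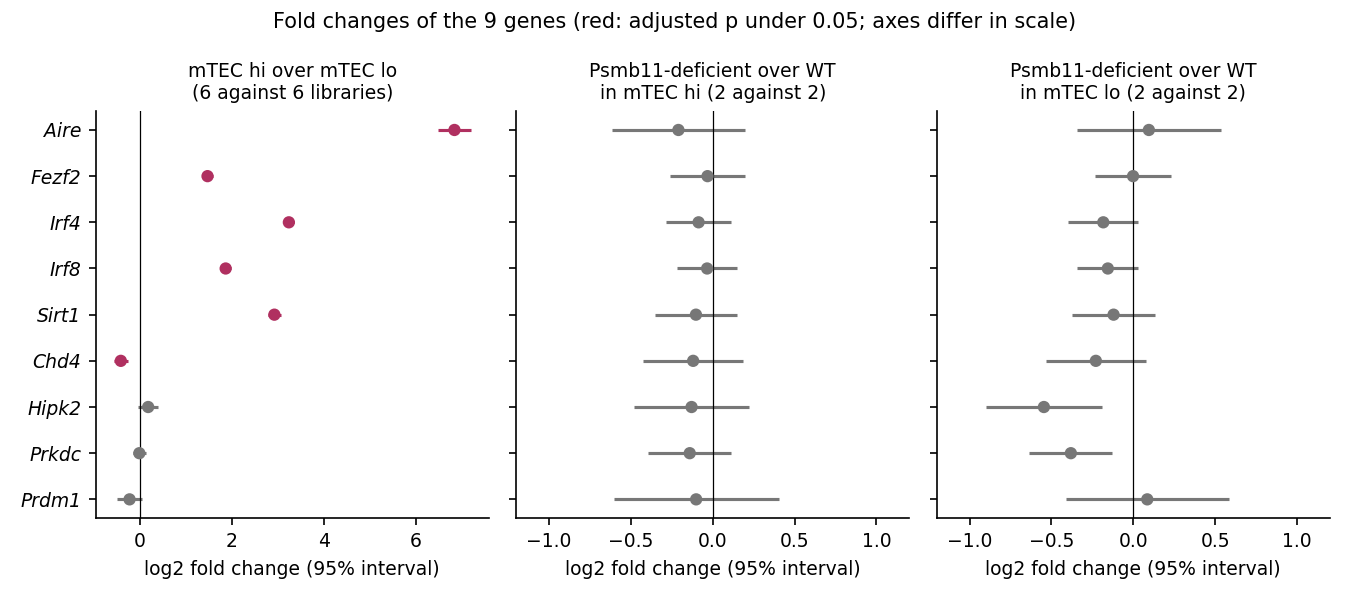
Log2 fold changes of the 9 genes with 95% intervals in 3 comparisons, red where the adjusted p is under 0.05. In the left panel 6 of 9 genes are red and Aire reaches 6.84, and in the 2 panels of Psmb11-deficient over WT no gene is red, with Hipk2 in mTEC lo furthest from 0 at -0.55; the left panel has a wider scale.

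Sirt1, Irf4, Irf8 and Prdm1 did not pass between genotypes in either cell type. In mTEC lo their log2 fold changes were -0.12, -0.18, -0.16 and 0.09, with intervals of -0.37 to 0.13, -0.40 to 0.03, -0.34 to 0.03 and -0.41 to 0.58. In mTEC hi they were -0.10, -0.09, -0.03 and -0.10. With genotype taken from the title for all 12 libraries, or from the source name, none of the 9 genes passed in either cell type.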

How the data were processed

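For each library the authors deposited read counts per gene, whole numbers without normalisation, and expected counts and TPM from RSEM. Per the submitters' processing notes the tools were CASAVA (version 1.8.2), STAR (2.5.1b) and RSEM (1.2.28). Those notes call the build GRCh38 although identifiers are of mouse; no annotation release is given in the sources used here. Reads split evenly over the strand columns, so the unstranded column was used, without its 4 rows that name no gene; reads in no feature were 14.2 to 17.2% of uniquely mapped reads in mTEC hi and 8.26 to 12.1% in mTEC lo. Symbols and coordinates are from GENCODE M21 (GRCm38), which matched 50376 of 50600 identifiers. Counts were filtered with filterByExpr (minimum 10, total minimum 15), scaled by TMM and tested with edgeR 4.0.16 (R 4.3.3) on all genes; mTEC hi against mTEC lo used 12 libraries with genotype class as covariate, and genotypes used a model of 4 groups over 8 libraries. Alternatives were RLE factors, library size alone, DESeq2 1.42.0, no filter, rounded RSEM counts, genotype from the title or source name, a replicate block, the 8 undisputed libraries, each cell type alone and leaving out each library. The fits were tested on simulated data in which few genes changed and every gene had the same spread. Scaling where most genes differ, as between these cell types, was not tested by it. The standard error is the log2 fold change over the square root of F. The 9 genes and 20 gene lists were chosen with earlier results of these data known. By the rule for named genes, all 9 were named in every comparison, with the called gene of largest rise and of largest fall from each list between cell types, Psmb11, and the genes of closest profile. One gene that the rule takes is not reported here.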

Additional observations from a re-analysis of the deposited data

Results flagged for a closer look

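Of 18 sets of 6 libraries (9 genes in 2 cell types), 1 held a library far from the others in CPM by Dixon's test, and chance marks about 1 in 20. Chd4 in mTEC lo was at 276.9 CPM in Psmb11-deficient replicate 1, below the other 5 libraries at 377 to 412 CPM, and this gap was 0.741 of the range of the group.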

How the results depend on the processing

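Between mTEC hi and mTEC lo, Aire, Fezf2, Sirt1, Irf4 and Irf8 stayed called and higher under every alternative and without any 1 library. Hipk2 passed with RLE factors (0.2527), DESeq2 (0.2534), RSEM counts (0.2667), no filter (0.1893), library size alone (0.4741) and a replicate block by matching titles (0.1882). Prkdc turned positive with RLE factors (0.06028), DESeq2 (0.06015), RSEM counts (0.05923) and library size alone (0.2818), where Prdm1 was 0.06757 and Chd4 lost its call (-0.1191). The block brought Prdm1 past the threshold (-0.2267). Leaving out 1 library gave 0.092 to 0.24 for Hipk2, -0.057 to 0.037 for Prkdc and -0.32 to -0.15 for Prdm1.

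Between genotypes in mTEC hi, the count of genes was 3 with DESeq2, 3 with RSEM counts, 42 with no filter, 0 with the source name and 2 with each cell type alone, and 0 to 2 without 1 library. Genotype from the title turned Hipk2 (0.05041), Irf8 (0.01044) and Prdm1 (0.04727) positive, and the replicate block by title number Chd4 (0.01737), Hipk2 (0.08198), Irf8 (0.009622) and Prdm1 (0.3676). Without 1 library Hipk2 was -0.36 to 0.071, Sirt1 -0.23 to 0.039, Irf8 -0.096 to 0.026 and Prdm1 -0.41 to 0.26.

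In mTEC lo the count was 9 with library size alone, 158 with DESeq2, 660 with no filter, 2 with the source name, 45 with the block and 1 with the cell type alone, and 1 to 323 without 1 library (18 without WT replicate 2, 22 without WT replicate 3, 1 without either mTEC hi WT library). Fezf2 turned positive with RLE factors (0.01418), library size (0.00205), DESeq2 (0.01419), no filter (0.002358), the title (0.04391) and the cell type alone (0.003423). With no filter Hipk2 (-0.5418) and Prkdc (-0.377) passed. Aire was -0.1275 with the title and -0.2142 with the block, and Prdm1 -0.002791 with RSEM counts. Without 1 library Aire was -0.21 to 0.46, Fezf2 -0.15 to 0.13, Chd4 -0.52 to 0.018, Hipk2 -0.86 to -0.28, Sirt1 -0.26 to 0.033, Prkdc -0.58 to -0.20 and Prdm1 -0.091 to 0.28.

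For the interaction the count was 9 with DESeq2, 141 with no filter, 2 with RSEM counts and 7 with the block, and 0 to 49 without 1 library. Sirt1 was -0.03163 with RSEM counts and -0.00389 with the title, Prdm1 0.04253 with the title and Fezf2 0.009784 with the source name. Without 1 library Fezf2 was -0.16 to 0.11, Chd4 -0.15 to 0.40, Sirt1 -0.13 to 0.16, Irf4 -0.011 to 0.20 and Prdm1 -0.50 to 0.18. Same-numbered libraries correlated at 0.0092 to 0.117 in their deviations. Not every library was closest to its own number, so the main fits did not take the numbers to pair them. Psmb11-deficient replicates 1 and 2 were the exception, at 0.115 and 0.117, each closest to its own number in both directions. Those libraries may thus be linked between the cell types, which the main fits did not model. The cause of the shifts between settings was not tested.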
